A study of Mus musculus with 2 samples.

Results

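Cells of a fibroblast line with a high level of Acta2, the gene of smooth muscle alpha-actin, were set against cells of the same line, plate and sort gate with a low level. Within each of 8 combinations of plate and Venus gate, the cells with at least 1000 genes detected were ranked by log2(CPM + 1) of Acta2, where CPM is the gene's counts scaled to a common total per cell. The top quartile was called Acta2-high and the bottom quartile Acta2-low. The members were thus chosen by their measured Acta2 counts: 382 of 768 cells were chosen, 191 high and 191 low, with 95 of each on plate 1 and 96 of each on plate 2. The counts of the chosen cells were summed per plate, gate and group, which gave 16 sums in 8 pairs. The level of Acta2 in the 2 groups is therefore a description and was not tested.

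Smooth muscle alpha-actin is carried by smooth muscle cells and by myofibroblasts, the contractile fibroblasts of healing wounds and scars. Its gene is switched on when serum response factor (SRF) and its partner MRTF bind CArG boxes in the promoter, and MRTF enters the nucleus as the pool of free actin monomer shrinks. Tension on the actin network also activates the co-activators YAP and TAZ, which act through TEAD factors, and TGF-beta signalling through SMAD proteins is the best known inducer of the myofibroblast state. A myofibroblast also makes collagen and large focal adhesions, the anchors that join its contractile bundles to the matrix.

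All groups came from NIH3T3-Rev-VNP1-H2B-iRFP, a derivative of the mouse embryonic fibroblast line NIH3T3 with a Venus reporter named for the clock gene Nr1d1 and a nuclear H2B-iRFP label. The cells grew in high-glucose DMEM with 10% fetal bovine serum to 95% confluency, about 5 days after seeding, with no synchronization and no other treatment. Single cells were sorted into 4 Venus bins and 2 iRFP bins, and 1 FLASH-seq library, a full-length single-cell RNA library, was made per cell. By the image names in the sort record, plate 1 held the high iRFP sort and plate 2 the low iRFP sort, and each Venus gate of 96 cells filled the same 6 well columns on each plate. Plate and iRFP sort therefore cannot be told apart, nor can Venus gate and well column. The line is 1 established line and the 8 pairs are gates of 2 plates and not separate cultures, so every p-value here measures the spread between these sums alone. The groups differ in Acta2 and not in any treatment.

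The promoters of Acta2 and of 6 genes that differed between the groups are shown first, because they carry the elements that the gene lists below are named for. They are the 250 bases before the annotated start in RefSeq on build GRCm38.p6, printed 5′ to 3′ on the gene's own strand. Capitals mark the CArG box in Myl9 and Cnn2 and the CArG box with 1 departure allowed in Acta2, the TEAD motif CATTCC in Ankrd1 and Ccn1, and the C/EBP-ATF response element TGATGNAA in Asns and Chac1, each searched on both strands.

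Acta2, chr19:34255374-34255623 (minus strand): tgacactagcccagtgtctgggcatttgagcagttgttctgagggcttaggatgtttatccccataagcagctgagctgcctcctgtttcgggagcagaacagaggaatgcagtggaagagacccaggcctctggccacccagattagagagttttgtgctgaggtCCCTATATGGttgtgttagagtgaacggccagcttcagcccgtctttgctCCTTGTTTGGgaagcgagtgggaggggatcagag

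Myl9, chr2:156775214-156775463 (plus strand): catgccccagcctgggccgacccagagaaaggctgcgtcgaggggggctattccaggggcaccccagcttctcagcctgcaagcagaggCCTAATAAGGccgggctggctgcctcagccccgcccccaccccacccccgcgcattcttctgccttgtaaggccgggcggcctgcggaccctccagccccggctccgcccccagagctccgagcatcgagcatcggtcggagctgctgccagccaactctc

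Cnn2, chr10:79988350-79988599 (plus strand): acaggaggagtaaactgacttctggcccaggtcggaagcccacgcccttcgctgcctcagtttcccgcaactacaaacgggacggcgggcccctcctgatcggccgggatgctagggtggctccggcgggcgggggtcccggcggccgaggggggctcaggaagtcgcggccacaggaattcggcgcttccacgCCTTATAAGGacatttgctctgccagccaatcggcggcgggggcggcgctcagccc

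Ankrd1, chr19:36119845-36120094 (minus strand): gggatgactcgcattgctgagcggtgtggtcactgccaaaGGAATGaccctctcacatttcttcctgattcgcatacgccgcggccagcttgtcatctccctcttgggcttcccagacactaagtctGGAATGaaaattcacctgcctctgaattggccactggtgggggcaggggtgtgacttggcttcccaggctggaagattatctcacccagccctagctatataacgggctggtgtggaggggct

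Ccn1, chr3:145649986-145650235 (minus strand): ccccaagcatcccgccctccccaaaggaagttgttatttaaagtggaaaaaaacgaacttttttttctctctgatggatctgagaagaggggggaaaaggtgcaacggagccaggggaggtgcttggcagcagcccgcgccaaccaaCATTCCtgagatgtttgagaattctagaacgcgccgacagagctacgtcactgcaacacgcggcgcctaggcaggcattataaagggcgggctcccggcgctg

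Asns, chr6:7693210-7693459 (minus strand): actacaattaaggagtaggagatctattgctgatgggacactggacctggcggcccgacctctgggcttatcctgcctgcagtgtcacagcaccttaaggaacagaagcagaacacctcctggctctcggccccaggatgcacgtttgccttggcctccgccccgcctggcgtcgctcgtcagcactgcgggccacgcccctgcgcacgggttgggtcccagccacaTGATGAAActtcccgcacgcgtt

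Chac1, chr2:119350992-119351241 (plus strand): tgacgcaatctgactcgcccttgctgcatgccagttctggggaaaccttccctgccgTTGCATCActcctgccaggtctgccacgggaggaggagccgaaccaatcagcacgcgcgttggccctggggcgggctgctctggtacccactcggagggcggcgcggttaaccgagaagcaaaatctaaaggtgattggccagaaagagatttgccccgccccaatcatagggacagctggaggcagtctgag

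The table held 32851 promoters of 27025 genes. Of these, 1.47% held a CArG box, 18.6% a CArG box with up to 1 departure, 12.6% the TEAD motif and 3.45% the C/EBP-ATF element. The Acta2 promoter held no strict CArG box and 2 with 1 departure, starting 84 and 34 bases before the annotated start. It also held GGAATG, the TEAD motif on the other strand, which is not in capitals. Each promoter printed above was marked only for the motif named with its gene. Myl9 and Cnn2 each held 1 strict CArG box, 161 and 56 bases before the start. In the smooth muscle contractile list described below, Myl9 was the only member with one, 1 of 8 tested and 1 of 4 called higher. A match is a description of the letters in this window and does not show binding.

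Acta2 was spread widely in this line. Of 767 cells with at least 1000 genes, 75 (9.78%) had no Acta2 count, the median cell had 43.8 CPM and the highest 3412 CPM. The 76 cells with the most Acta2 counts held 58.3% of all of them. The bottom quartile ended between 7.20 and 24.99 CPM in the 8 gates, and the next cell above it lay between 7.81 and 27.3 CPM. The top quartile began between 101 and 303 CPM, and the next cell below it lay between 98.0 and 290.0 CPM. Both limits were therefore placed in a continuous range with no gap, as the plot of Acta2 per cell shows. Between 5 and 16 cells per gate were at 0, and each of them fell in the bottom quartile. Summed, Acta2 was at 303 to 676 CPM (median 484) in the Acta2-high sums and at 1.16 to 8.51 CPM (median 3.74) in the Acta2-low sums.

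**Figure D1:**
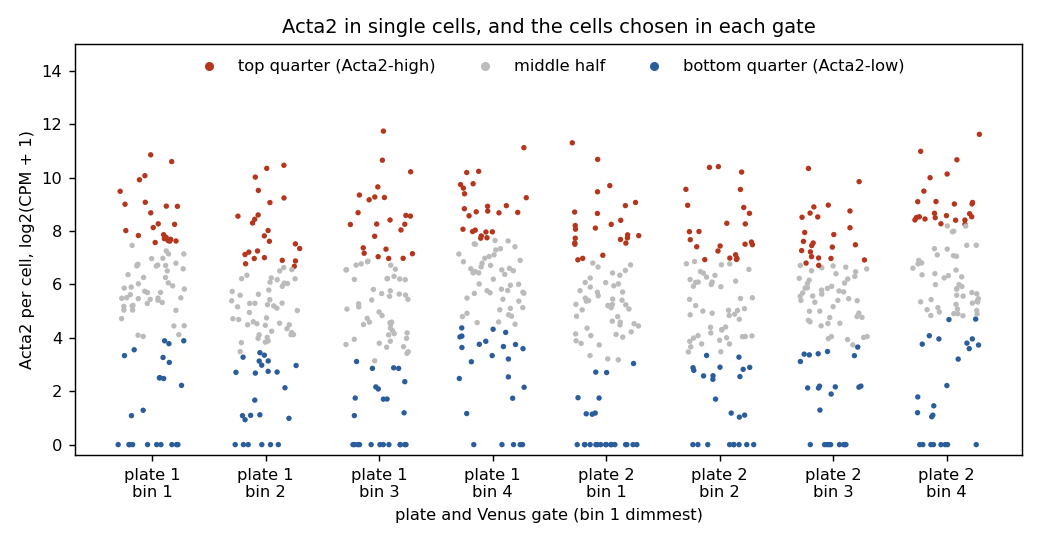
Acta2 in each of 767 cells (vertical axis, log2 of CPM + 1) by plate and Venus gate (horizontal axis), with the top quartile in red, the other cells in grey and the bottom quartile in blue. Each gate runs from 0 to over 1000 CPM, and the quartiles meet without a gap.

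The 16 sums held 17610971 to 21909104 counts each, and the median cell held 842810 counts. Among markers of other cell types, Ptprc, Epcam, Krt18 and Tie1 had no count in the 16 sums, and each had a count in 0.130% of the 767 cells. Other members of the same lists did have counts. Cd68 was found in 16 and Pecam1 in 15 of the sums, and the epithelial marker Cdh1 passed the filter and was not called. The epithelial list summed to 2.9 to 8.5 CPM in the Acta2-high and 2.8 to 6.6 CPM in the Acta2-low sums. The summed immune list lay between 7.88 and 18.7 CPM in the Acta2-high sums and between 3.67 and 10.9 CPM in the Acta2-low sums, led by Lyz2, and its part in the results was not tested. The pericyte list lay between 56.6 and 104 CPM against 54.9 to 75.8 CPM, and the endothelial list at or below 1.64 CPM in every sum. All 6 fibroblast markers passed the filter on low counts, with a median log2 change of 0.034. The label of a myofibroblast-like state was checked on the contractile list. Tagln, shared by smooth muscle cells and myofibroblasts, was higher in the Acta2-high sums but low in both groups, and Cnn1 and Myh11, markers of differentiated smooth muscle, were nearly absent, with values given below. The cells are named here by their Acta2 level alone.

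Between the groups, 2150 of 13278 genes passed an adjusted p of 0.05 (16.2%). Of all genes tested, 1151 were higher in Acta2-high cells (8.67%) and 999 were lower (7.52%), with Acta2 itself left out. Most changes were small: the median log2 change was 0.36 among the genes called higher and -0.35 among those called lower, and 163 called genes changed by at least 1 on the log2 scale. Of those 163, 119 were higher and 44 lower. In 229 genes (1.72%) all 8 Acta2-high sums lay on one side of all 8 Acta2-low sums. The median log2 change over all genes tested was -0.0059, the value against which each list is read. The share of called genes that were higher depended on the scaling: it was 53.5% here, 60.0% with library totals and no TMM scaling, and 85.8% when the mean log2(CPM + 1) of cells was compared with limma, a setting that shifts the median of all genes by 0.099.

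**Figure D2:**
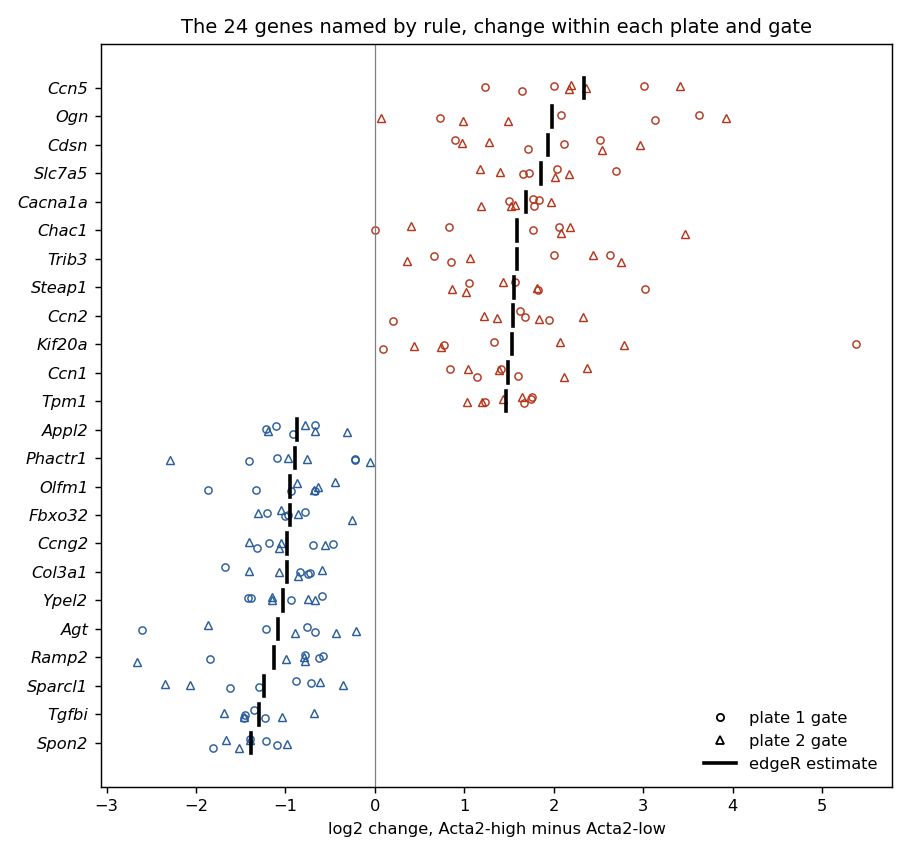
The 24 genes named by rule, with the log2 change between Acta2-high and Acta2-low sums (CPM + 0.5) in each of the 8 gates (circles plate 1, triangles plate 2) and the edgeR estimate as a black bar. By the rule's own choice each point of a gene lies on one side of 0, and the estimates run from -1.39 for Spon2 to 2.34 for Ccn5.

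Part of the contractile apparatus rose with Acta2, and part of it was scarcely present. Of 17 genes of the smooth muscle contractile list, 8 had enough counts to be tested. Of these, 4 were higher and 0 lower (50% called, against 16.2% of all genes). The median log2 change over those tested was 0.30. Myl9, the regulatory light chain of smooth muscle and non-muscle myosin, lay at 11.96 to 27.4 CPM (median 16.3) in the Acta2-high sums and at 0.457 to 3.13 CPM (median 2.24) in the Acta2-low sums. The groups were apart in all 8 gates, and the log2 change was 3.22 ± 0.31 (SE; adjusted p = 7.44e-05). Tpm1, a tropomyosin that winds along actin filaments, lay at 301 to 554 CPM (median 443) against 118 to 191 CPM (median 160.3). It too separated the groups without overlap, with a log2 change of 1.47 ± 0.085 (SE; adjusted p = 2.56e-06).

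Smaller rises were found for another tropomyosin, Tpm2, and for Cald1, caldesmon, which restrains myosin on actin. Their log2 changes were 0.39 ± 0.078 (SE; adjusted p = 0.00645) and 0.36 ± 0.063 (SE; adjusted p = 0.00313), with overlapping groups. Tpm2 lost its call without the quartile of cells highest in mitochondrial share (adjusted p = 0.217). The remaining tested members did not pass: the log2 change was 0.13 for the myosin light chain kinase Mylk, 0.11 for Csrp1, -0.069 for smoothelin (Smtn) and 0.25 for desmin (Des), with adjusted p from 0.311 to 0.783.

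Tagln, transgelin or SM22-alpha, an actin-bundling protein and a standard partner marker of Acta2, was too low for the filter. It had 309 counts over the Acta2-high sums, or 1.89 CPM, and 24 counts over the Acta2-low sums, or 0.156 CPM. In a fit with no filter on low counts its log2 change was 3.47 ± 0.51 (SE; adjusted p = 3.62e-05). Cnn1, smooth muscle calponin, and Myh11, smooth muscle myosin heavy chain, each had 0 counts in the Acta2-high sums, which allows up to 0.0184 CPM, and 5 counts in the Acta2-low sums. The Acta2-high sums thus held Tpm1, Tpm2 and Myl9 at medians of 443, 106 and 16.3 CPM and no count of Cnn1 or Myh11. Other smooth muscle markers were low but present. Lmod1, leiomodin 1, was at 0.618 CPM over the Acta2-high and 0.188 CPM over the Acta2-low sums, and was not called without the filter. The mature smooth muscle list, which includes Des, summed to 1.95 to 4.49 CPM against 0.713 to 10.9 CPM. Summed counts do not tell apart more cells with a gene and more RNA in each cell.

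The cytoplasmic actins rose by a smaller amount. Actb, beta-actin, lay at 3857 to 5358 CPM (median 4211) against 2756 to 3383 CPM (median 3088), without overlap, and its log2 change was 0.51 ± 0.061 (SE; adjusted p = 3.25e-04). Actg1, gamma-actin, changed by 0.44 ± 0.072 (SE; adjusted p = 0.00201), with overlapping groups. The muscle actins Acta1 and Actg2 were below the filter at 2.46 and 3.12 CPM over the Acta2-high sums and 0.110 and 0.279 CPM over the Acta2-low sums. All actin genes are near-identical in their coding sequence, so reads could be assigned to the wrong member and these values are uncertain.

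Targets of SRF and MRTF that build and brace the actin network moved mainly upward. Of 23 tested members, 14 were higher and 0 lower (60.9% called, against 16.2% of all genes). The median log2 change was 0.30. Cnn2, calponin 2, a non-muscle actin binder, lay at 566 to 787 CPM (median 600.1) in the Acta2-high sums and at 187 to 311 CPM (median 260.0) in the Acta2-low sums. The 2 ranges were far apart, and the log2 change was 1.33 ± 0.089 (SE; adjusted p = 7.44e-06). Also higher were the actin crosslinker filamin A (Flna), at 396 to 597 CPM (median 459) against 235 to 349 CPM (median 299), and the myosin light chain Myl6, at 818 to 974 CPM (median 848) against 571 to 686 CPM (median 608). Neither gene's groups overlapped, and the log2 changes were 0.68 ± 0.074 (SE; adjusted p = 1.59e-04) and 0.49 ± 0.043 (SE; adjusted p = 4.29e-05). Vinculin (Vcl), which links actin to adhesions, changed by 0.64 ± 0.10 (SE; adjusted p = 0.00126), and Tagln2, a relative of transgelin, and the LIM protein Fhl2 by 0.66 and 0.74.

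The transcription factor Srf itself did not pass the test, at 7.48 to 13.3 CPM (median 11.4) against 7.12 to 11.02 CPM (median 8.30), with a log2 change of 0.37 ± 0.12 (SE; adjusted p = 0.0680). Among the tested members of this list, 6 of 23 had a strict CArG box in the 250-base promoter, and of those called higher 4 of 14 did: Cnn2, Fhl2, Myl6 and Vcl. The count fell to 13 of the list without the quartile of cells highest in cell cycle genes and to 9 without the quartile highest in mitochondrial share, settings in which 9.19% and 9.55% of all genes were called.

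Targets of YAP and TAZ rose with Acta2 as well. Of 19 tested members of that list, 8 were higher and 1 lower (47.4% called, against 16.2% of all genes). The median log2 change was 0.36. Ankrd1, a nuclear ankyrin-repeat protein and a reference target, lay at 1.08 to 4.91 CPM (median 1.51) in the Acta2-high sums and at 0 to 0.400 CPM (median 0.0493) in the Acta2-low sums, where 4 of the sums had none. Its log2 change was 4.21 ± 0.55 (SE; adjusted p = 5.87e-04), on low counts. Ankrd1 passed the filter on low counts only through the Acta2-high sums. Its change is therefore a description, and its place among the 8 higher members is not read as support for the list. The matricellular proteins Ccn1 (Cyr61) and Ccn2 (CTGF), which are secreted and bind integrins, rose too. Ccn1 lay at 233 to 434 CPM (median 325) against 67.3 to 196 CPM (median 119), without overlap, and Ccn2 at 33.2 to 122 CPM (median 49.96) against 6.19 to 37.2 CPM (median 21.98), with overlap. The log2 changes were 1.49 ± 0.15 (SE; adjusted p = 1.07e-04) and 1.54 ± 0.19 (SE; adjusted p = 3.61e-04).

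Amotl2, an angiomotin that binds YAP at actin filaments, was among the most evenly changed members, at 170.3 to 279 CPM (median 190.2) against 55.95 to 87.99 CPM (median 79.3). The groups did not overlap, and the log2 change was 1.40 ± 0.083 (SE; adjusted p = 2.80e-06). Ajuba, a LIM protein that inhibits LATS kinases, and Dlc1 changed by 1.04 ± 0.19 (SE; adjusted p = 0.00392) and 0.71 ± 0.10 (SE; adjusted p = 6.62e-04). Foxf2, a forkhead transcription factor, was the member that fell, by 0.43 on the log2 scale, in 8 of 8 gates. Of the 14 tested members with a promoter in the table, 7 held CATTCC, and of the 6 such members called higher 5 did, among them Ajuba, Amotl2, Ankrd1 and Ccn1. Ccn5 (WISP2), a relative of Ccn1 and Ccn2 that lacks their C-terminal domain and was not on the list, had the largest change of the genes named by rule. It lay at 18.8 to 84.4 CPM (median 28.02) against 2.48 to 10.1 CPM (median 6.05), with a log2 change of 2.34 ± 0.22 (SE; adjusted p = 6.58e-05).

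**Figure D3:**
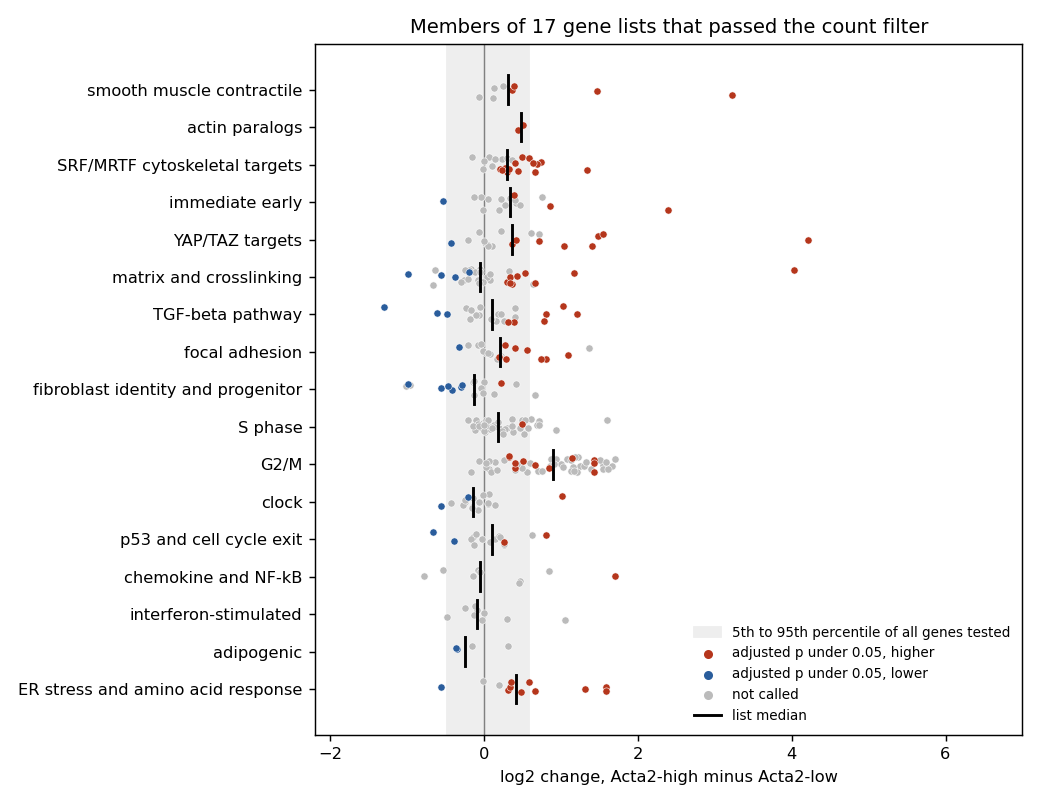
The log2 change of every tested member of 17 gene lists (points, red higher, blue lower, grey not called), each list's median (black bar) and the 5th to 95th percentile of all genes tested (grey band). The list medians run from -0.25 for the adipogenic list to 0.90 for the G2/M list, and the called SRF/MRTF members all lie above 0.

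The matrix genes split in direction. Of 33 tested members, 9 were higher and 4 lower (39.4% called, against 16.2% of all genes). The median log2 change was -0.055, near that of all genes. Col1a1, the main chain of collagen I, lay at 6955 to 10548 CPM (median 9310.2) against 5372 to 8635 CPM (median 7818). The ranges overlapped, yet it was higher in 8 of 8 gates, and the log2 change was 0.30 ± 0.042 (SE; adjusted p = 8.97e-04). Col3a1, the chain of collagen III, went the other way, at 474 to 1135 CPM (median 869.9) in the Acta2-high sums against 784 to 2733 CPM (median 1848) in the Acta2-low sums. It was lower in 8 of 8 gates, with a log2 change of -0.99 ± 0.11 (SE; adjusted p = 1.68e-04).

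Chains of 3 other collagens rose: Col5a2 changed by 0.43, Col11a1 by 0.53 and Col12a1 by 1.17 on the log2 scale. Lox, the lysyl oxidase that crosslinks collagen, lay at 775 to 1236 CPM (median 937) against 408 to 979.5 CPM (median 557) and changed by 0.66 ± 0.12 (SE; adjusted p = 0.00319). Collagen VI fell: Col6a1 lay at 783 to 1027 CPM (median 917) against 1054 to 1339.9 CPM (median 1202), without overlap, a log2 change of -0.38 ± 0.043 (SE; adjusted p = 2.47e-04). Its partner chain Col6a2 changed by -0.20, also without overlap, and thrombospondin 2 (Thbs2) by -0.57. Fmod, fibromodulin, a proteoglycan that binds collagen fibrils, was nearly absent from 6 of the Acta2-low sums, at 0 to 6.42 CPM (median 0.0482) against 2.04 to 15.6 CPM (median 4.26). It was higher in 6 of 8 gates, with a log2 change of 4.03 ± 1.10 (SE; adjusted p = 0.0287), and this call was lost in 6 of the 8 fits that left out 1 gate. Fmod passed the filter on low counts only through the Acta2-high sums, so its change is a description.

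Genes of the TGF-beta pathway moved both ways. Of 25 tested, 6 were higher and 3 lower (36% called, against 16.2% of all genes), with a median log2 change of 0.10. The ligand gene Inhba, which encodes the activin A subunit, lay at 17.6 to 27.9 CPM (median 21.3) against 7.04 to 12.6 CPM (median 9.47) and rose without overlap by 1.21 ± 0.15 (SE; adjusted p = 3.48e-04). Tgfb3, a TGF-beta ligand, and the co-receptor Tgfbr3 (betaglycan) fell, with log2 changes of -0.61 ± 0.10 (SE; adjusted p = 0.00188) and -0.49 ± 0.081 (SE; adjusted p = 0.00223). Among downstream genes, Id1 and the inhibitory Smad6, both better known as targets of BMP signalling, changed by 0.80 ± 0.15 (SE; adjusted p = 0.00439) and 0.77 ± 0.20 (SE; adjusted p = 0.0208).

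Tgfbi, a secreted matrix protein named for its induction by TGF-beta, moved against Acta2. It lay at 177 to 302 CPM (median 246) in the Acta2-high sums and at 478 to 727 CPM (median 651) in the Acta2-low sums. The ranges were far apart, and the log2 change was -1.30 ± 0.092 (SE; adjusted p = 1.21e-05).

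Focal adhesion genes were higher in 8 and lower in 1 of 20 tested (45% called, against 16.2% of all genes). The median log2 change was 0.20. The collagen-binding integrin Itga11 changed by 1.09 ± 0.17 (SE; adjusted p = 0.00170) and the laminin-binding integrin Itga3 by 0.81 ± 0.066 (SE; adjusted p = 2.63e-05). Nexn, nexilin, an actin-filament protein of adhesions, changed by 0.73 ± 0.17 (SE; adjusted p = 0.0143) and lost its call without the quartile of cells highest in mitochondrial share (adjusted p = 0.0895). Paxillin (Pxn), the adaptor that fell, did so by 0.32 on the log2 scale (adjusted p = 0.0449), a call lost in 7 of the 8 fits that left out 1 gate.

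Genes on a mixed list of fibroblast identity and progenitor markers moved mainly down. Of 18 tested, 1 was higher and 6 lower (38.9% called, against 16.2% of all genes). The median log2 change was -0.14. Cd34, a sialomucin of stromal progenitors, lay at 386 to 655 CPM (median 485) against 587 to 744 CPM (median 665) and was lower in 7 of 8 gates, with a log2 change of -0.42 ± 0.076 (SE; adjusted p = 0.00356). Pdgfra, the PDGF receptor alpha chain, changed by -0.47 ± 0.086 (SE; adjusted p = 0.00397), and the surface protein Ly6c1 by -0.56 ± 0.082 (SE; adjusted p = 0.00110). Ly6a (Sca-1), the actin-severing gelsolin (Gsn) and the secreted lectin-like Clec3b changed by -0.29, -0.30 and -0.99. S100a6, a calcium-binding protein, was the 1 that rose, by 0.21. Without the quartile of cells highest in cell cycle genes, Cd34, Clec3b, Ly6a, Ly6c1 and S100a6 were no longer called (adjusted p from 0.0903 to 0.301), and the calls of Clec3b and S100a6 were lost in 6 and 5 of the 8 fits that left out 1 gate.

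A further group outside the cytoskeleton rose with Acta2: genes of amino acid supply and of the ATF4 response, the program by which cells answer amino acid shortage and endoplasmic reticulum stress. Of 12 members of the list tested, 9 were higher and 1 lower (83.3% called, against 16.2% of all genes). The median log2 change was 0.41. Asns, asparagine synthetase and a classic ATF4 target, lay at 272 to 446 CPM (median 354) against 110.0 to 204 CPM (median 132). No sum of the 2 groups overlapped, and the log2 change was 1.31 ± 0.046 (SE; adjusted p = 2.30e-08). Slc7a5, the LAT1 transporter of large neutral amino acids, which the naming rule picked, lay at 136 to 412 CPM (median 255) against 52.1 to 131 CPM (median 64.9) and changed by 1.86 ± 0.14 (SE; adjusted p = 1.47e-05).

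Trib3, a pseudokinase that feeds back on ATF4, and Chac1, an enzyme that degrades glutathione, varied more between gates. Trib3 lay at 73.8 to 233 CPM (median 133) against 13.2 to 90.6 CPM (median 36.99), and Chac1 at 22.3 to 74.4 CPM (median 41.8) against 3.05 to 44.8 CPM (median 14.5). Both pairs of ranges overlapped, although each gene was higher in 8 of 8 gates, with log2 changes of 1.58 ± 0.28 (SE; adjusted p = 0.00349) and 1.59 ± 0.33 (SE; adjusted p = 0.00848). Atf4 itself changed by 0.59 ± 0.056 (SE; adjusted p = 7.29e-05) and the stress factor Ddit3 (CHOP) by 0.66 ± 0.18 (SE; adjusted p = 0.0264). Hspa5 (BiP), the main chaperone of the endoplasmic reticulum, lay at 1626 to 1979.7 CPM (median 1701) against 1114 to 1412 CPM (median 1268), without overlap, and changed by 0.48 ± 0.043 (SE; adjusted p = 4.94e-05). Ddit4 (REDD1), an inhibitor of the growth kinase mTORC1, fell by 0.56 on the log2 scale. The call of Ddit3 was lost in 4 of the 8 fits that left out 1 gate. The element TGATGNAA was found in 3 of the 9 members called higher: Asns, Chac1 and Herpud1.

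Cell state measures also differed between the groups, and they are given here beside the gene results they move with. The Acta2 CPM used for ranking was scaled to each cell's total, mitochondrial counts included. Counts per cell and the mitochondrial share are therefore not independent of the ranking. The mitochondrial share of counts was lower in Acta2-high cells in 8 of 8 gates: the median of the 8 gate medians was 7.47% against 9.09%, and the mean change within gates was -13.6% (exact sign-flip permutation test over 8 gates, two-sided, p = 0.00781, the smallest this design allows; adjusted p = 0.0195 over 5 measures). The number of genes detected was 2.15% higher on average within gates, also in 8 of 8 gates (exact permutation test, adjusted p = 0.0195). Counts per cell did not pass, with a mean ratio of medians 2.04% higher (exact permutation test, adjusted p = 0.180). Of the Acta2-low cells, 4 had fewer than 5000 genes, and no Acta2-high cell did.

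Genes of dividing cells were higher in the median Acta2-high cell, but not evenly over the sums. The G2/M list was higher in the median cell by 12.2% on average within gates, in 7 of 8 gates, and the S phase list by 36.4 CPM, in 7 of 8 gates (exact permutation tests, adjusted p = 0.0260 and 0.0293). In the sums, 11 of 54 G2/M genes (20.4%) were called higher and 0 lower, against 8.67% higher of all genes tested, with a median log2 change of 0.90. Of 43 S phase genes 1 (2.33%) was called higher and 0 lower, a smaller share than over all genes, with a median of 0.17. The G2/M list summed to 1722 to 3243 CPM in the Acta2-high sums and to 949 to 3922 CPM in the Acta2-low sums, so the ranges overlapped and the highest sum was an Acta2-low one. Top2a, the topoisomerase of dividing cells, shown after its values were seen, was higher in 3 and lower in 5 of 8 gates. It lay at 22.4 to 125 CPM (median 56.7) against 8.68 to 199 CPM (median 53.1) and did not pass, with a log2 change of 0.17 ± 0.60 (SE; adjusted p = 0.891). With the mean log2(CPM + 1) of cells and limma its change was 0.54 and passed (adjusted p = 0.0228), and on plate 2 alone it was -0.61. In the brightest gate it was lower in the Acta2-high sum on both plates, at 86.03 against 199.5 CPM on plate 1 and 22.4 against 95.4 CPM on plate 2. Of the cells in each Acta2 quartile, from lowest to highest Acta2, 17.8%, 23.96%, 28.5% and 29.3% were among the quartile of their gate highest in these genes. These shares pool the 8 gates, and the gates differed. On plate 1 there were 5 such cells in each group in Venus bin 1, and 4 Acta2-high against 8 Acta2-low in bin 2. Every other gate had more of them in the Acta2-high group. Kif20a, a mitotic kinesin that the naming rule picked for 1 sign in 8 gates, lay at 15.04 to 81.2 CPM (median 35.9) against 0.296 to 56.7 CPM (median 12.9), and its log2 change was 1.53 ± 0.48 (SE; adjusted p = 0.0485). Without the cells highest in cell cycle genes it was 0.43 (adjusted p = 0.683).

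With those cells left out before ranking, 1164 of 12661 genes were called (9.19%), 696 higher (5.5%) and 468 lower (3.7%). The contractile list then had 4 genes higher and 0 lower, the SRF/MRTF list 13 and 0, the YAP/TAZ list 6 and 1, and the amino acid and stress list 8 and 1. The G2/M list had 2 higher and 0 lower. In a comparison of 4 sums, 1 per plate and group, where 8.13% of genes were called (4.85% higher and 3.28% lower), 37 G2/M genes were higher and 0 lower. With the quartile of cells highest in mitochondrial share left out instead, a setting added after the data were seen, 1212 of 12685 genes were called (9.55%, with 5.05% higher and 4.51% lower). The first 4 of these lists then had 3, 9, 6 and 8 genes higher and 0, 0, 2 and 1 lower. Of the genes described here, Cd34, Clec3b, Col6a2, Dbp, Herpud1, Jun, Kif20a, Ly6a, Ly6c1, Phactr1, S100a6, Smad6 and Tef were no longer called without the cells highest in cell cycle genes (adjusted p from 0.0627 to 0.683), and Atf3, Col11a1, Col12a1, Dbp, Ddit3, Gsn, Nexn, Nfil3, Pdgfra, Phactr1, Pxn, S100a6, Tef, Thbs2, Tpm2 and Vcl without those highest in mitochondrial share (adjusted p from 0.05003 to 0.436). Ankrd1 had too few counts to be tested without the cells highest in cell cycle genes. Without the cells highest in mitochondrial share, the median mitochondrial share of the chosen cells was still 7.33% in the Acta2-high and 7.99% in the Acta2-low group, and whether it has a part in the results was not tested beyond this.

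**Figure D4:**
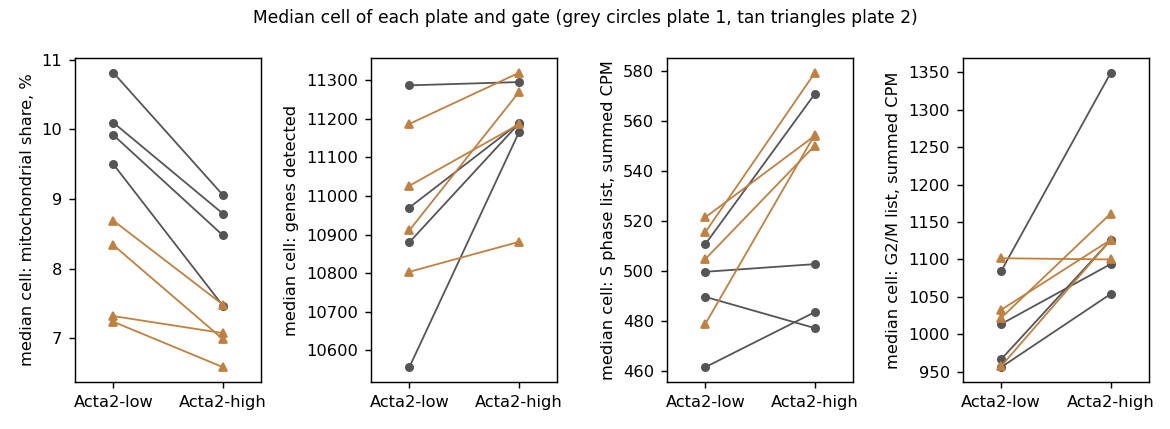
Median cell of each gate in the Acta2-low and Acta2-high group for the mitochondrial share, genes detected and the summed CPM of the S phase and G2/M lists; each line joins the 2 groups of 1 gate, and the vertical axes do not start at 0. All 8 lines fall for the mitochondrial share and all 8 rise for genes detected.

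The Venus reporter did not pass the test between the groups. The reporter transcript, counted as YFP, lay at 16.1 to 685 CPM (median 186) in the Acta2-high and at 17.5 to 647 CPM (median 205) in the Acta2-low sums, both ranges spanning the 4 Venus gates, and its log2 change within gates was -0.075 ± 0.078 (SE; adjusted p = 0.578). Of 17 clock genes tested, 1 was higher and 2 lower, 17.6% against 16.2% of all genes tested, with a median log2 change of -0.15. Nfil3, a repressor of D-box genes, changed by 1.01 ± 0.18 (SE; adjusted p = 0.00346). Dbp and Tef, activators of the same genes, changed by -0.56 ± 0.14 (SE; adjusted p = 0.0218) and -0.22 ± 0.064 (SE; adjusted p = 0.0414). Neither of these 2 falls was called without the quartile of cells highest in cell cycle genes (adjusted p = 0.165 and 0.409), and leaving out 1 gate ended the call in 1 and 6 of 8 fits.

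In the other direction, the level of Acta2 was compared across the Venus gates, which the ranking within gates did not use. Over all 767 cells, the mean level of the 2 plates was 151 ± 21.8 CPM in the dimmest gate, 125 ± 0.330 CPM and 141 ± 55.3 CPM in the middle gates and 201 ± 18.8 CPM in the brightest gate (SD, n = 2 plates). The trend was 0.14 ± 0.063 log2 units per gate (SE; edgeR adjusted p = 0.174) and did not pass, in a test that called 15.4% of 18429 genes (6.76% higher and 8.63% lower in brighter gates). With the mean log2(CPM + 1) of cells and limma it was 0.23 per gate and did pass (adjusted p = 0.00456). The brightest gate was the highest on each plate, at 188 CPM on plate 1 and 214 CPM on plate 2, while the order of the other gates differed between the plates.

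The contrast between Acta2-high and Acta2-low cells was also compared between plates and along the Venus gates. No gene passed the test of a difference between plates (0 of 13278 by edgeR, 0%; 588 genes, or 4.43%, had an unadjusted p under 0.05). Along the Venus gates 1 gene, Cdh19, passed (0.00753% of genes tested), on low counts. Taken alone, plate 1 called 517 genes and plate 2 called 247.

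The remaining genes that the naming rule picked fell outside the lists. Among those that rose, Ogn (osteoglycin), a small leucine-rich proteoglycan of the matrix, lay at 44.8 to 131 CPM (median 92.0) against 7.83 to 61.5 CPM (median 21.2) and changed by 1.98 ± 0.43 (SE; adjusted p = 0.00955). Cacna1a, the pore subunit of a voltage-gated calcium channel, lay at 28.2 to 44.9 CPM (median 36.5) against 9.48 to 13.7 CPM (median 11.2), without overlap, and changed by 1.68 ± 0.095 (SE; adjusted p = 2.56e-06). Steap1, a protein of the cell surface, and Cdsn, corneodesmosin, an adhesive protein best known from skin, changed by 1.56 ± 0.19 (SE; adjusted p = 4.17e-04) and 1.93 ± 0.24 (SE; adjusted p = 4.28e-04). The Steap1 groups did not overlap, while those of Cdsn and Ogn did.

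Among the 12 genes named for their fall, Tgfbi and Col3a1 were described above. Spon2, a secreted spondin, had the largest fall among genes named by rule, at 58.6 to 303 CPM (median 148) against 186 to 704 CPM (median 391), a log2 change of -1.39 ± 0.085 (SE; adjusted p = 3.64e-06). Its ranges overlapped, yet it was lower in 8 of 8 gates. Sparcl1 (hevin), a matrix protein, Agt, angiotensinogen, and Olfm1, an olfactomedin, changed by -1.25, -1.08 and -0.95, and Ramp2, a co-receptor for adrenomedullin, by -1.13. Ccng2, cyclin G2, which accumulates in cells that leave the cycle, and Fbxo32 (atrogin-1), a ubiquitin ligase, both known targets of FOXO factors, changed by -0.98 ± 0.11 (SE; adjusted p = 1.89e-04) and -0.95 ± 0.11 (SE; adjusted p = 2.77e-04). Ypel2, Appl2, an endosomal adaptor, and Phactr1, an actin and phosphatase regulator, changed by -1.03, -0.87 and -0.89. For Phactr1 the call was lost in 3 of the 8 fits that left out 1 gate and without the quartile of cells highest in cell cycle genes (adjusted p = 0.120).

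Across single cells, the likeness of each gene to Acta2 was described by the mean within-gate Spearman correlation over 767 cells, for 12378 genes detected in at least 25% of them. These cells include those chosen, share 2 plates and gates and differ in depth, so the values carry no test. The highest were Cnn2 at 0.58, Myl6 at 0.49, Actb at 0.48, Amotl2 at 0.47 and Tpm1 at 0.47. For Cnn2 the 8 gates ranged from 0.44 to 0.69. The lowest were the antiproliferative Btg1 at -0.40, Tgfbi at -0.39, the secreted Angptl2 at -0.34, Appl2 at -0.34 and the lysosomal membrane protein Laptm4a at -0.33. In the sums Btg1 lay at 149 to 343 CPM (median 293) against 326 to 599.9 CPM (median 496), with a log2 change of -0.82 ± 0.056 (SE; adjusted p = 8.27e-06).

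The 4 quartiles were then set side by side to see whether the difference was graded. Cnn2 was at 251 ± 38.2, 357 ± 36.6, 425 ± 33.7 and 630.3 ± 78.5 CPM from the lowest to the highest Acta2 quartile (SD, n = 8 gates). Asns went from 146 ± 34.1 through 217 ± 37.5 and 248 ± 42.5 to 358 ± 65.4 CPM. Both means rose at each step. Myl9 was at 2.02 ± 0.955, 2.22 ± 1.18, 5.11 ± 2.58 and 18.2 ± 5.61 CPM, so most of its rise lay between the third and the top quartile. Tgfbi fell from 609 ± 106 through 443 ± 147 and 325 ± 167 to 248 ± 49.1 CPM, and Col3a1 from 1774 ± 613 to 869 ± 229.8 CPM. Other genes did not follow the order of the quartiles. Ccn2 was at 66.7 ± 35.4 CPM in the third and 63.2 ± 29.6 CPM in the top quartile, and Agt at 19.9 ± 9.86 and 22.5 ± 11.004 CPM. Chac1 was at 25.3 ± 12.8 and 25.2 ± 12.6 CPM in the middle quartiles and at 44.8 ± 17.7 CPM in the top quartile.

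**Figure D5:**
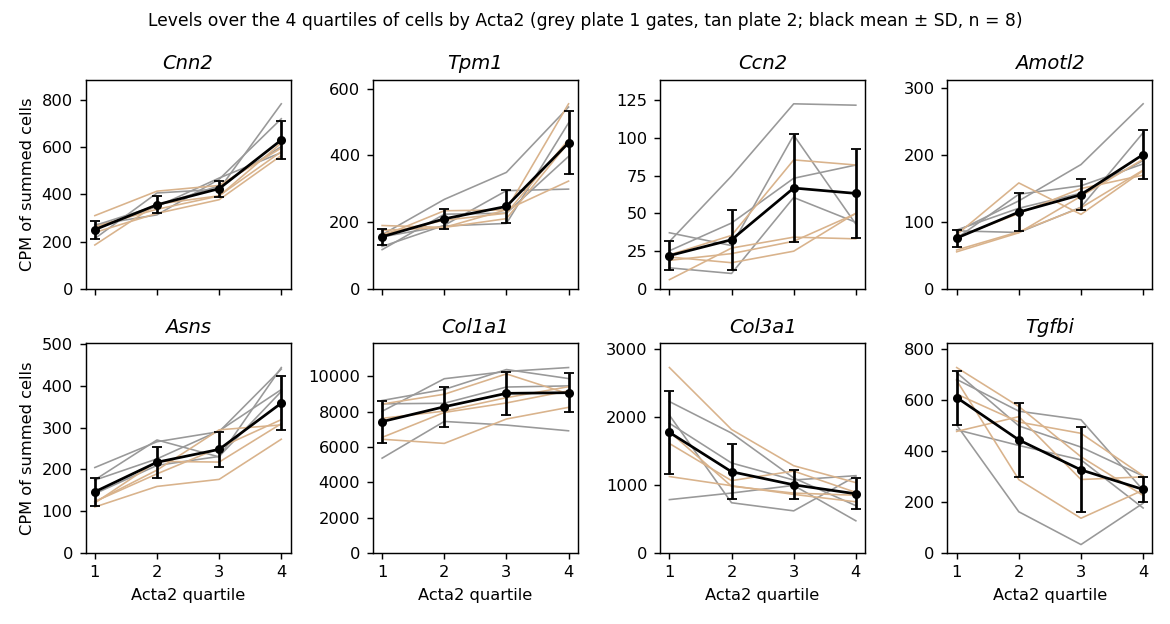
CPM of summed cells (vertical axes, from 0) in the 4 quartiles of cells by Acta2 (horizontal axes, lowest to highest) for 8 genes; thin lines are the 8 gates (grey plate 1, tan plate 2) and black points the mean ± SD. The mean of Cnn2, Tpm1, Amotl2 and Asns rises at each step, that of Col3a1 and Tgfbi falls at each step, and that of Ccn2 is higher in the third quartile than in the top one.

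The middle quartiles gave a comparison in cells that the extreme quartiles do not hold. Between the third and the second quartile, 0 of 13284 genes passed (0% by edgeR), while 1129 genes (8.50%) had an unadjusted p under 0.05. Of the 2144 genes called between the extreme quartiles and tested here, 1792 (83.6%) had the same sign, against 58.6% of 10929 genes not called. The sizes were small: the median log2 change was 0.077 for the genes called higher and -0.083 for those called lower. Myl9 changed by 1.15 between the middle quartiles, Ccn2 by 1.03 and Tgfbi by -0.66, and none of these passed.

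The neighbours of Acta2 on chromosome 19 were looked at because their reads lie close by. In the GENCODE vM21 annotation Stambpl1, a deubiquitinase gene on the opposite strand, ends 756 bases from Acta2, and Fas, the death receptor gene, lies 35075 bases away, with no overlap. Fas was higher in Acta2-high cells, at 12.04 to 32.4 CPM (median 15.8) against 3.01 to 9.92 CPM (median 5.13), without overlap, and its log2 change was 1.70 ± 0.24 (SE; adjusted p = 9.50e-04). Stambpl1 changed by 0.59 ± 0.10 (SE; adjusted p = 0.00223), with overlapping groups. The use of strand in counting is not given in the sources used here, so reads that run past the end of Acta2 could be counted in Stambpl1 and its value is uncertain.

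Of the other lists, the chemokine list had 1 gene higher of 9 tested, Cxcl1, at 4.93 to 22.7 CPM (median 14.1) against 1.28 to 7.37 CPM (median 3.87), with a log2 change of 1.70 ± 0.17 (SE; adjusted p = 9.86e-05). Among 17 immediate early genes 3 were higher and 1 lower, led by the stress factor Atf3, at 2.57 to 7.78 CPM (median 4.78) against 0 to 2.42 CPM (median 0.977), with a log2 change of 2.39 ± 0.46 (SE; adjusted p = 0.00556). Of 16 genes of p53 and cell cycle exit 2 were higher and 2 lower. Of 4 adipogenic genes tested 2 were lower. The share called was 11.1% of the chemokine, 23.5% of the immediate early, 25% of the p53 and 50% of the adipogenic list. Over all genes tested it was 16.2%. Lyz2, an immune marker also found at low levels in other cells, was at 7.46 to 17.9 CPM (median 10.3) against 2.95 to 10.5 CPM (median 4.40).

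Size and scatter recorded by the sorter showed no difference that passed. Of 30 measurements of scatter, fluorescence and image shape, none had an adjusted p under 0.05 (exact sign-flip permutation tests, smallest adjusted p = 0.234), and 3 had an unadjusted p under 0.05. With 8 gates no p can fall below 0.00781, so a single measure at that limit adjusts to 0.234 over 30 tests and could not have passed alone. The brightest pixel of the side scatter image was 6.78% lower in Acta2-high cells, in 8 of 8 gates, at that limit (exact permutation test, p = 0.00781). Forward scatter area, the usual proxy of cell size, was 1.05% higher, in 4 of 8 gates (exact permutation test, adjusted p = 0.703). Well positions did not pass the test either (exact permutation tests, p = 1 for the column and 0.969 for the row).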

How the data were processed

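Counts per gene and cell were deposited by the authors as raw counts; STAR 2.7.11a, SAMtools, bedtools, HTSeq and the builds GRCm39 and mm39 are named, without roles, per the submitters' processing notes. Annotation, strand and use of molecular identifiers are not given in the sources used here; PCR reads without such identifiers are not independent molecules, so floors cover counting error only. Sorter intensity values, and image size and shape values treated as a score, were deposited by the authors in arbitrary units, per the file headers. Of 33757 features 24902 had a symbol, and the others held 1.07% of counts.

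Counts of the chosen cells were summed per plate, gate and group and tested with edgeR 4.0.16 (R 4.3.3; quasi-likelihood, TMM scaling, gate as block, Benjamini-Hochberg adjustment); CPM of sums use TMM. limma 3.58.1, DESeq2 1.42.0, other scalings, filters and cell sets were alternatives, and the code was tested on simulated data. No doublet caller was run. Genes were named as the 12 largest changes each way among called genes that kept 1 sign in 8 gates and averaged 4 or more in log2 CPM, plus list members and the 5 genes most and least correlated with Acta2. Neighbours Fas and Stambpl1 and markers were added. Members and lists were chosen with earlier results of these data known. Cell and sorter measures were compared by exact sign-flip permutation over 8 gates. Promoters came from RefSeq (GRCm38.p6). 1 list member is not reported here by name.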

Additional observations from a re-analysis of the deposited data

Results flagged for a closer look

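Of 180 groups of 8 sums checked, 13 (7.22%) held a highest or lowest sum that stood far from the others. The cut-off used would flag about 1 in 20 groups of independent values from 1 normal distribution. These sums come from different gates and plates, so that rate does not apply to them and the 7.22% is a description. Among the Acta2-high sums these were Ccn5 at 84.4 CPM (plate 1, Venus bin 4; next 37.6), Fbxo32 at 20.0 CPM (plate 2, Venus bin 1; next 14.8), Fmod at 15.6 CPM (plate 1, Venus bin 1; next 8.12), Lox at 1236 CPM (plate 1, Venus bin 1; next 976), Lyz2 at 17.9 CPM (plate 2, Venus bin 4; next 12.3) and Myl6 at 974 CPM (plate 1, Venus bin 1; next 886). Among the Acta2-low sums these were Cdsn at 15.4 CPM (plate 1, Venus bin 2; next 9.07), Col12a1 at 18.7 CPM (plate 2, Venus bin 1; next 12.2), Des at 10.2 CPM (plate 2, Venus bin 1; next 3.62), Fhl2 at 119 CPM (plate 2, Venus bin 2; next 80.98), Mylk at 10.9 CPM (plate 2, Venus bin 1; next 6.63), Slc7a5 at 131 CPM (plate 1, Venus bin 4; next 83.3) and Top2a at 199.5 CPM (plate 1, Venus bin 4; next 95.4). Des and Mylk, which were not called, had their far values in the same gate.

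The Acta2 contrast of Cdh19, a cadherin, differed along the Venus gates, with a slope of 3.32 log2 units per gate in the change from Acta2-low to Acta2-high (edgeR adjusted p = 0.0394, 1 of 13278 genes). The gene was lower in the Acta2-high sums of the dimmest gate, at 0 against 4.35 CPM on plate 1 and 0 against 8.52 CPM on plate 2, and the difference shrank to 1.04 against 1.03 CPM and 2.15 against 1.49 CPM in the brightest gate. Of the 8 Acta2-high sums 5 had no count, so the size of the slope depends on the prior count. Its level ran from 0 to 2.15 CPM in the Acta2-high sums and from 0.145 to 8.52 CPM in the Acta2-low sums.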

How the results depend on the processing

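The count of 2150 genes called lay between 1539 and 1854 when 1 gate was left out at a time. It was 517 on plate 1 alone, 247 on plate 2 alone, 1402 with 4 sums, 1343 with the top and bottom eighths of cells, 1164 without the cells highest in cell cycle genes, 1212 without those highest in mitochondrial share (a setting chosen after seeing the data) and 0 by edgeR for the third against the second quartile, where 1129 genes had an unadjusted p under 0.05. The same-gate pairing is part of the main fit, since both sums of a pair come from 1 plate and gate; with no replicate block 1252 genes were called. Other scalings, filters, DESeq2, limma, thinned cells and stricter cell filters stayed within 1.5 times of 2150. The cause of these shifts was not tested.

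Of 83 genes named here and called, none changed sign except 9 between the middle quartiles. The log2 change between the middle quartiles took the other sign from the main value as -0.60 for Atf3, -0.037 for Chac1, -0.056 for Csrp1, 0.16 for Dbp, -0.31 for Des, 0.025 for Foxf2, 0.0091 for Pdgfra, -0.066 for Srf, -0.055 for Stambpl1, -0.012 for Tagln2, 0.14 for Tef, 0.014 for Tgfbr3 and -0.057 for Top2a. Of genes and measures that were not called, the sign turned with no replicate block (-0.15 for Des and 0.042 for YFP), with limma (0.13 for Smtn and 0.13 for YFP), with 4 sums (-0.088 for Des and 0.061 for YFP), with the top against the bottom eighth (0.0054 for Smtn), with the upper against the lower 50% (0.011 for the diffusivity of the forward scatter image and -0.11 for Des), without the cells highest in mitochondrial share (-0.17 for Des, 0.027 for Smtn and 0.078 for YFP) and on plate 2 (-0.093 for Mylk and -0.61 for Top2a). With 1 gate left out, Des ranged from -0.031 to 0.56 and Smtn from -0.17 to 0.048, and Top2a from -0.26 (without plate 1, Venus bin 3) to 0.52 (without plate 2, Venus bin 4). The trend of Acta2 over Venus gates was 0.23 per gate with limma.

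Leaving out 1 gate ended the call of Clec3b, Fmod, Kif20a and Tef in 6 fits each, of Jun and Pxn in 7, of S100a6 in 5, of Ddit3 in 4, of Phactr1 in 3 and of Dbp in 1 (plate 1, the dimmest gate). Tagln and Ankrd1 had few counts although each sum held 17610971 counts or more, and the part of depth in this was not tested.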
